A study of Mus musculus with 24 samples.

Results

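In mouse forelimbs at stage E10.5, 5 transcripts were chosen because their RNA and their ribosome footprints were lower in Trp53 null limbs than in Trp53 WT limbs while both Rps6 alleles were intact. They are ENSMUST00000038211.12, ENSMUST00000108661.7, ENSMUST00000017430.11, ENSMUST00000044423.3 and ENSMUST00000041956.13, of 21960 transcripts in the table. The deposited table holds transcript IDs without gene names, and 0 of the IDs matched the gene tables used here, so no gene or function is given for these transcripts. The selection asked for a mean of at least 20 CPM (reads of a transcript scaled to a common library total) in RNA and 5 CPM in footprints in the Rps6 WT, Trp53 WT limbs, for an RNA log2 ratio of Trp53 null to Trp53 WT at or under -0.3 (0.5 CPM was added to each mean), and for all 3 null libraries below all 3 WT libraries in both kinds of library. The 10 with the lowest summed ratios were to be taken, but 5 met the conditions.

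RNA and ribosome-protected fragments (RPF) were sequenced from the same lysates in 4 genotypes, with 3 replicates each, giving 24 libraries in 8 groups. Rps6 is a gene for a small-subunit ribosomal protein, Trp53 is the gene for p53, and every embryo carried 1 floxed Rps6 allele (Rps6lox/+). Rps6 WT, Trp53 WT limbs (Rps6lox/+;Trp53+/+) served as the control, Rps6 WT, Trp53 null limbs were Rps6lox/+;Trp53-/-, Rps6 het, Trp53 WT limbs were Prx1Cre;Rps6lox/+;Trp53+/+ and Rps6 het, Trp53 null limbs were Prx1Cre;Rps6lox/+;Trp53-/-. Each replicate was a pool of limbs from a pair of embryos of 1 genotype. Prx1Cre drives Cre in limb bud mesenchyme, so other cells of the limb (ectoderm, vessel) keep both Rps6 alleles in the Rps6 het pools, and the Cre transgene itself is present only there.

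p53 is a transcription factor that binds DNA near its target genes and activates them. In unstressed cells the ubiquitin ligase Mdm2 keeps p53 low, although some targets are still transcribed at a basal rate. When ribosome assembly is disturbed, a complex of free ribosomal proteins with 5S rRNA binds Mdm2 and p53 accumulates. Loss of Trp53 in limbs without Cre therefore addresses the basal state, and loss of Trp53 in Rps6 het limbs addresses a state in which a ribosomal protein gene is reduced.

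Libraries held 14291854 to 29104669 counts in RNA and 7026056 to 16835045 in RPF. A level of 3 counts corresponded to 0.103 to 0.21 CPM in RNA and to 0.178 to 0.427 CPM in RPF, a floor that covers counting error only, and the 5 transcripts lay well above it, with 163 to 6378 counts per RNA library and 49 to 2724 per RPF library. Replicates of a group differed by more than sampling noise, with chi-square statistics per degree of freedom of 1.81 to 18.4, the highest between replicates 2 and 3 of Rps6 het, Trp53 null in RNA. Genotype and tissue could not be checked on Rps6, Trp53 or limb markers, since no ID was paired with a name. In whole limbs, fewer cells of a type that expresses a transcript and less RNA per cell cannot be told apart.

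Of the 21960 transcripts, 7263 reached both level limits, 13 of those had an RNA ratio at or under the limit, 12 of the 13 had RNA pools apart, and 6 had RPF pools apart as well. ENSMUST00000108658.9 was then left out by its ID. The next transcripts above the limit, with pools apart in both kinds, were ENSMUST00000180502.7, ENSMUST00000114024.8 and ENSMUST00000045366.9, with RNA log2 ratios of -0.30, -0.28 and -0.27. Just inside the limit stood ENSMUST00000041956.13 and ENSMUST00000044423.3, both at -0.31, so 4 of the 5 lay close to the limit and 1 lay far from it. The membership depended on scaling: with totals scaled by TMM (edgeR's trimmed mean of M-values), ENSMUST00000038211.12 and ENSMUST00000108661.7 met the conditions and the other 3 did not. Across the 7263 transcripts the median RNA log2 ratio in Rps6 WT limbs was -0.05, against -0.32 for the 5 that were selected on it.

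Trp53 WT and Trp53 null were next compared in the 6 Rps6 het pools, which the selection had not used. The 5 transcripts did not all give the same call. ENSMUST00000038211.12 and ENSMUST00000017430.11 were again lower in Trp53 null limbs, in RNA and in RPF. For ENSMUST00000108661.7, ENSMUST00000044423.3 and ENSMUST00000041956.13 no Trp53 difference passed the test there, in either kind of library. Whether the transcripts differed from each other was not tested. Without Rps6 het, Trp53 WT replicate 3, 0 of the 5 were called lower in RNA. The 5 are therefore described here by how they were chosen, and not as a p53-dependent set.

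**Figure D1:**
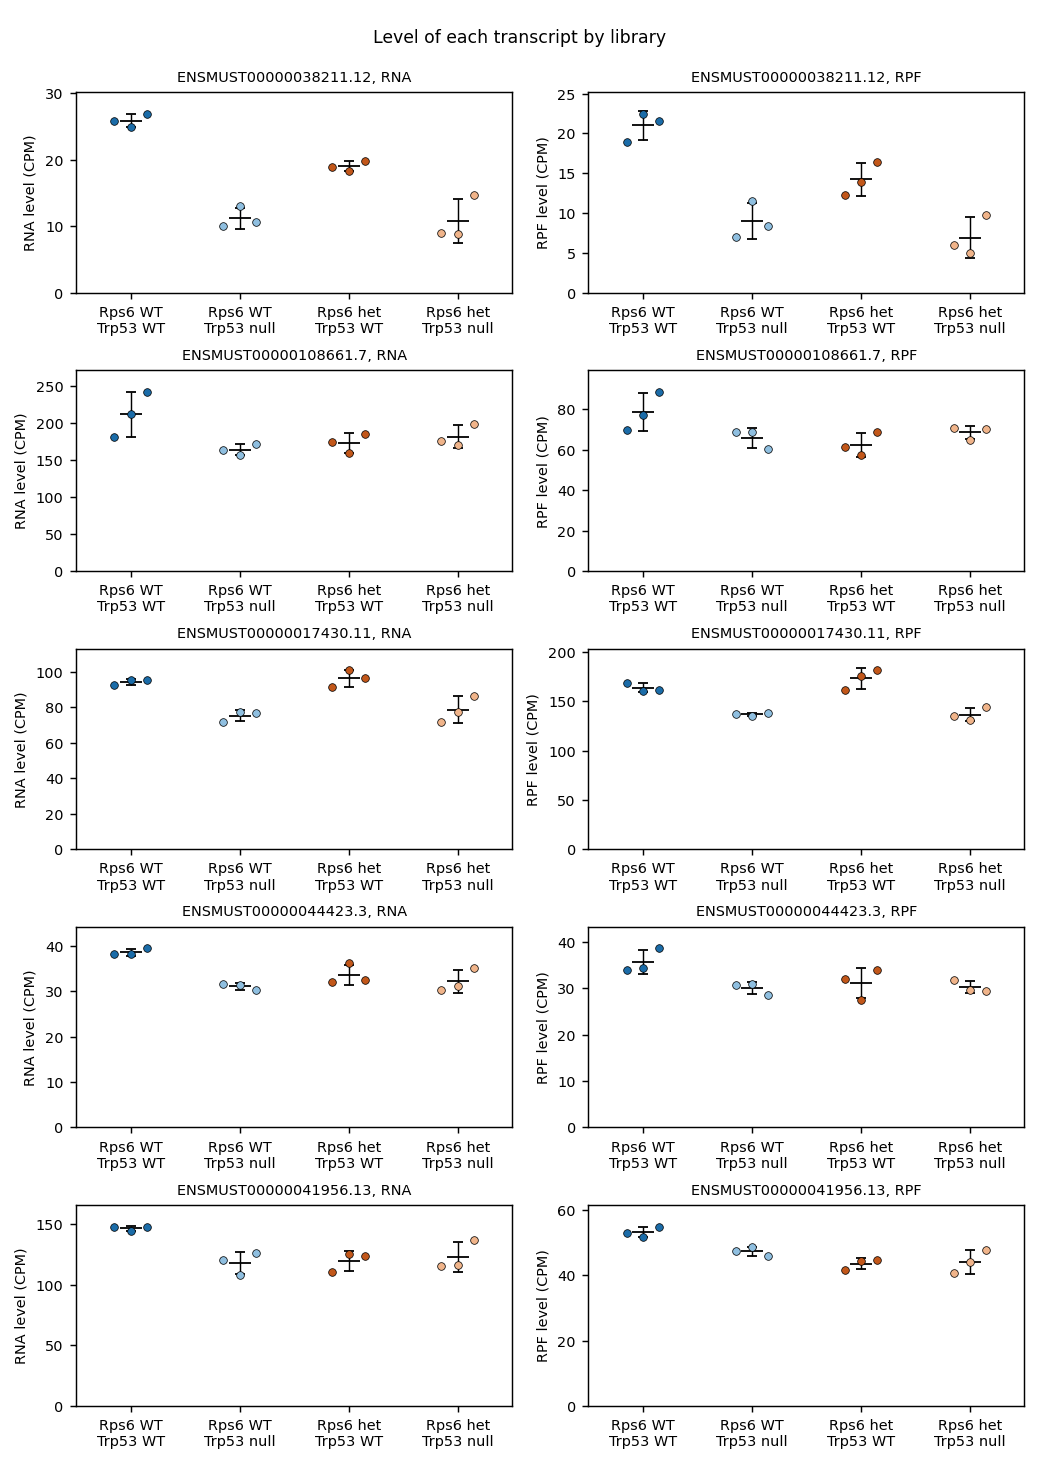
Level in CPM (y axis, from 0) of each of the 5 transcripts in RNA (left) and RPF (right), by genotype; points are the 3 replicates in order 1 to 3 from left to right, and bars are mean and SD. In ENSMUST00000038211.12 and ENSMUST00000017430.11 both Trp53 null groups sit below both Trp53 WT groups. In ENSMUST00000038211.12, ENSMUST00000044423.3 and ENSMUST00000041956.13 the control sits above the other 9 pools.

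ENSMUST00000038211.12 had the largest Trp53 difference of the 5. Its RNA level in the control was 25.8, 24.9 and 26.9 CPM in replicates 1 to 3, and in Rps6 WT, Trp53 null it was 10.0, 13 and 10.6 CPM. Its RPF level was 19.0, 22.5 and 21.6 CPM in the control and 7.05, 11.5 and 8.40 CPM in Rps6 WT, Trp53 null. Those 12 values chose the transcript and are given without a test: the log2 ratio was -1.17 in RNA and -1.18 in RPF.

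With Rps6 het, ENSMUST00000038211.12 RNA was 18.8, 18.4 and 19.8 CPM with Trp53 WT and 8.99, 8.76 and 14.6 CPM with Trp53 null. RPF was 12.3, 13.9 and 16.4 CPM with Trp53 WT and 5.99, 4.93 and 9.77 CPM with Trp53 null. The groups did not overlap in either kind, although replicate 3 of the null group stood above the other two in both. The fitted log2 difference was -0.82 ± 0.163 (SE) in RNA, with an adjusted p of 0.0120, and -1.10 ± 0.165 in RPF, with an adjusted p of 2.86e-05, by edgeR's quasi-likelihood test with Benjamini-Hochberg adjustment over all transcripts tested. The RNA call was lost without Rps6 het, Trp53 WT replicate 3, where the difference was -0.79 and the adjusted p 0.0521 by the same edgeR test. In that fit RNA calls over all transcripts were 642, against 1224 with every pool. Over the 12 alternatives tried, the adjusted p ranged from 4.33e-06 to 0.0521 in RNA. The RNA call was kept in 11 of the 12 and the RPF call in all 12.

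The order of ENSMUST00000038211.12 levels over the genotypes was the same in both kinds: control, then Rps6 het, Trp53 WT, then the null groups. The means were 25.9 ± 1.03, 19.0 ± 0.748, 11.2 ± 1.58 and 10.8 ± 3.33 CPM in RNA (SD, n = 3) for the control, for Rps6 het, Trp53 WT, and for the Trp53 null groups with Rps6 WT and with Rps6 het. In RPF they were 21.0 ± 1.83, 14.2 ± 2.10, 8.99 ± 2.29 and 6.90 ± 2.55 CPM. The first 3 groups in this order had no overlapping pools in either kind, and the last pair overlapped in both, so the null groups did not differ beyond their spread.

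ENSMUST00000017430.11 showed a smaller Trp53 difference. Its RNA level in the control was 92.6, 95.2 and 95.3 CPM, and in Rps6 WT, Trp53 null it was 71.9, 77.4 and 76.9 CPM. Its RPF level was 168.7, 160.3 and 161.8 CPM in the control and 136.9, 135.3 and 138.2 CPM in Rps6 WT, Trp53 null. The log2 ratios by which it was chosen were -0.32 in RNA and -0.26 in RPF.

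With Rps6 het, ENSMUST00000017430.11 RNA was 91.4, 101.0 and 96.6 CPM with Trp53 WT and 71.8, 77.6 and 86.6 CPM with Trp53 null. RPF was 161.7, 175.9 and 181.7 CPM with Trp53 WT and 134.7, 131.2 and 143.7 CPM with Trp53 null. The groups were again apart in both kinds. The fitted log2 difference was -0.31 ± 0.068 in RNA, with an adjusted p of 0.0189 by edgeR's quasi-likelihood test, and -0.39 ± 0.051 in RPF, with an adjusted p of 4.15e-06. The RNA call was lost without Rps6 het, Trp53 WT replicate 3 (-0.31, adjusted p 0.0679 in edgeR) and without Rps6 het, Trp53 null replicate 1 (-0.25, adjusted p 0.0669 in edgeR). Over the same 12 alternatives the adjusted p was 0.00156 to 0.0679 in RNA, and it was at most 0.000121 in RPF.

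The level of ENSMUST00000017430.11 was similar with Rps6 WT and Rps6 het. Its means were 94.4 ± 1.53 CPM in the control and 96.3 ± 4.85 CPM in Rps6 het, Trp53 WT (SD, n = 3), and 75.4 ± 3.05 and 78.7 ± 7.46 CPM in the corresponding Trp53 null groups. RPF means were 163.6 ± 4.45 and 173.1 ± 10.3 CPM with Trp53 WT and 136.8 ± 1.46 and 136.5 ± 6.45 CPM with Trp53 null. Within each Trp53 genotype the Rps6 WT and Rps6 het pools overlapped in RNA and in RPF.

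**Figure D2:**
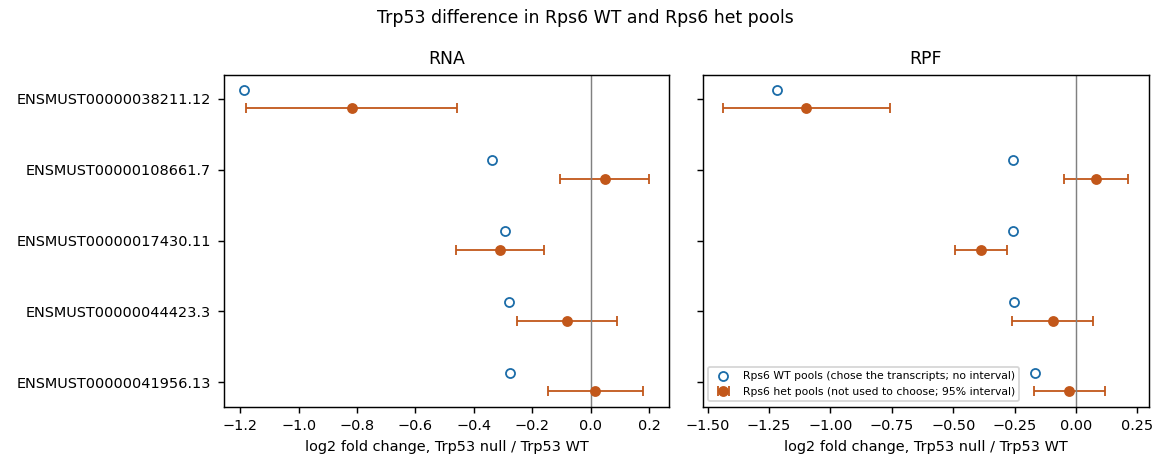
Fitted log2 fold change of Trp53 null over Trp53 WT (x axis) for each transcript in RNA (left) and RPF (right), with 95% intervals in the Rps6 het pools, which the selection did not use; open points without intervals are the values of the Rps6 WT pools that chose the transcripts. In the Rps6 het pools the intervals of ENSMUST00000038211.12 and ENSMUST00000017430.11 lie below 0 and those of the other 3 transcripts include 0.

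ENSMUST00000108661.7 varied most within the control, in RNA and in RPF. Its RNA level there was 181.3, 212.9 and 242.3 CPM, against 163.2, 157.2 and 171.8 CPM in Rps6 WT, Trp53 null. In RPF the control gave 69.7, 77.3 and 88.6 CPM and the null group 68.7, 68.8 and 60.1 CPM, so that the groups were separated by less than 1 CPM. In the Rps6 het pools RNA was 175.0, 159.4 and 185.6 CPM with Trp53 WT and 175.1, 171.0 and 199.1 CPM with Trp53 null.

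RPF of ENSMUST00000108661.7 in the Rps6 het pools was 61.1, 57.2 and 68.9 CPM with Trp53 WT and 70.5, 64.8 and 70.5 CPM with Trp53 null. Both kinds overlapped between the Trp53 genotypes. The fitted difference was 0.05 in RNA (95% interval -0.10 to 0.20, adjusted p 0.717 in edgeR) and 0.08 in RPF (-0.05 to 0.21, adjusted p 0.446 in edgeR). For none of the 5 was the change of the Trp53 difference with Rps6 genotype tested, because the pools that chose the transcripts enter it.

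ENSMUST00000044423.3 RNA was 38.1, 38.2 and 39.4 CPM in the control and 31.6, 31.3 and 30.2 CPM in Rps6 WT, Trp53 null. The Rps6 het pools gave 32.1, 36.2 and 32.5 CPM with Trp53 WT and 30.2, 31.2 and 35.1 CPM with Trp53 null. All 9 pools outside the control lay between 30.2 and 36.2 CPM, below the control's lowest pool. The fitted RNA difference in the Rps6 het pools was -0.08 (95% interval -0.25 to 0.09, adjusted p 0.582 in edgeR).

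RPF of ENSMUST00000044423.3 was 34.0, 34.5 and 38.6 CPM in the control and 30.6, 30.8 and 28.6 CPM in Rps6 WT, Trp53 null. The Rps6 het pools gave 31.9, 27.5 and 33.9 CPM with Trp53 WT and 31.8, 29.7 and 29.5 CPM with Trp53 null, which overlapped. The fitted RPF difference was -0.09 (95% interval -0.26 to 0.07, adjusted p 0.482 in edgeR).

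ENSMUST00000041956.13 RNA was 147.8, 144.5 and 148.2 CPM in the control and 120.7, 108.3 and 125.9 CPM in Rps6 WT, Trp53 null. In the Rps6 het pools it was 110.4, 125.5 and 124.0 CPM with Trp53 WT and 115.4, 116.4 and 137.1 CPM with Trp53 null. The control again stood above all 9 other pools, which overlapped among themselves. The fitted RNA difference in the Rps6 het pools was 0.02 (95% interval -0.15 to 0.18, adjusted p 0.923 in edgeR).

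RPF of ENSMUST00000041956.13 was 53, 51.9 and 55.0 CPM in the control and 47.4, 48.8 and 46.1 CPM in Rps6 WT, Trp53 null. In the Rps6 het pools it was 41.6, 44.5 and 44.7 CPM with Trp53 WT and 40.6, 44.0 and 47.9 CPM with Trp53 null. The means of both Rps6 het groups, 43.6 and 44.2 CPM, lay below the 47.4 CPM of Rps6 WT, Trp53 null, but Rps6 het, Trp53 null overlapped with that group. The fitted RPF difference there was -0.03 (95% interval -0.17 to 0.12, adjusted p 0.844 in edgeR).

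Counted together, 2 of the 5 were called lower in RNA in the Rps6 het pools, where 4.51% of all 14082 transcripts tested were called lower at an adjusted p under 0.05, and 2 of 5 were called lower in RPF, where 7.56% of 11773 were. These shares include transcripts below the levels that the selection asked for. The share of calls at those levels was not computed, so the shares are not matched to the 5 in level. The count in RNA went to 0 without Rps6 het, Trp53 WT replicate 3 and to 1 without Rps6 het, Trp53 null replicate 1. The median fitted log2 difference of the 5 was -0.08 in RNA and -0.09 in RPF, against 0.0018 and 0.0037 for all transcripts tested.

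Pools were apart, with null below WT in Rps6 het limbs, for 2 of the 5 in RNA, 2 in RPF and 2 in both. Among the 7263 transcripts at the same levels the shares were 14.5% in RNA, 11.8% in RPF and 6.86% in both. Replicate 3 of Rps6 het, Trp53 null had the highest RNA level of its group in all 5 transcripts, by 64.9% over the mean of replicates 1 and 2 in ENSMUST00000038211.12 and by 14.2% to 18.3% in the other 4. That library, the deepest of all, was the highest of its group in 51.4% of the 7263 transcripts. Without it, the fitted RNA difference was -1.11 for ENSMUST00000038211.12 and -0.38 for ENSMUST00000017430.11, and no other of the 5 was called.

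Rps6 het was also set beside Rps6 WT within Trp53 WT. That contrast uses the control pools on which the transcripts were chosen for being high, so it is a description. Pools were apart with Rps6 het lower for 3 of the 5 in RNA (33.4% of the 7263 transcripts), 4 in RPF (33.7%) and 3 in both (20.5%). Median log2 ratios of the 5 were -0.29 in RNA and -0.29 in RPF, against -0.04 and -0.06 for the 7263. ENSMUST00000017430.11 was the exception, with ratios of 0.03 and 0.08, and the other 4 had RNA ratios from -0.44 in ENSMUST00000038211.12 to -0.20 in ENSMUST00000044423.3.

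Within Trp53 null, Rps6 het pools and Rps6 WT pools overlapped for all 5 transcripts in RNA and in RPF. Over the 7263 transcripts such pools were apart, in either direction, for 16.7% in RNA and 18.9% in RPF. The median log2 ratio of the 5 was 0.06 in RNA and -0.0025 in RPF, against 0.03 and -0.01 for the 7263. This contrast shares the Rps6 WT, Trp53 null pools with the selection, which had picked them for being low. In 3 of the 5 transcripts the control pools stood above the other 9 pools in both RNA and RPF (0.248% of the 7263), in 3 of 5 in RNA (3.44%) and in 3 of 5 in RPF (1.62%). Since the selection required the control to be high, nothing is read from these shares.

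**Figure D3:**
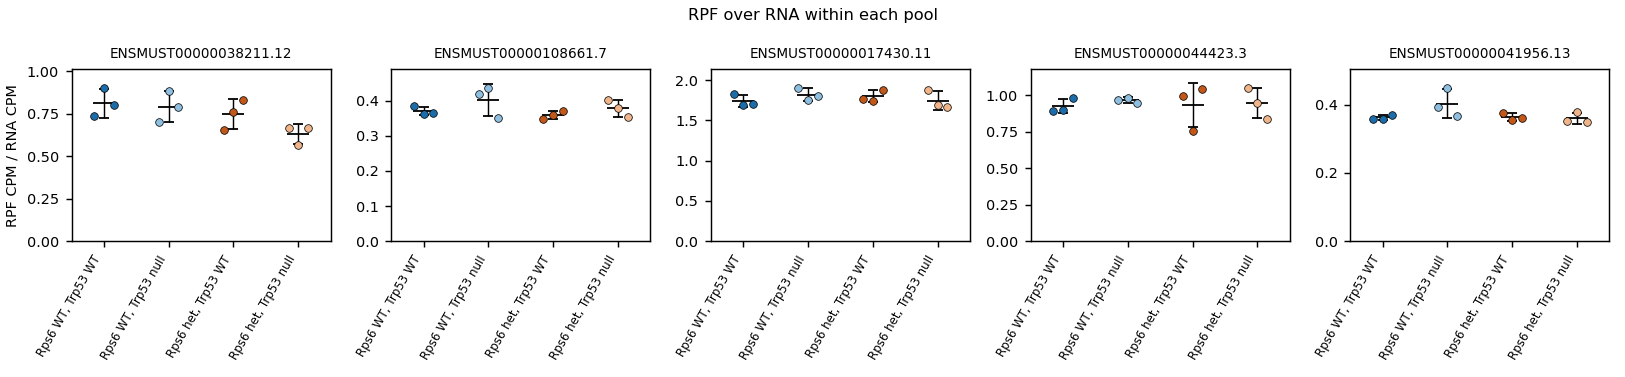
RPF CPM divided by RNA CPM of the same pool (y axis, from 0) for each transcript, by genotype; points are the 3 replicates and bars are mean and SD. Ratios overlap between Trp53 WT and Trp53 null within Rps6 het for each of ENSMUST00000038211.12, ENSMUST00000108661.7, ENSMUST00000017430.11, ENSMUST00000044423.3 and ENSMUST00000041956.13.

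Footprints per RNA, which reflect how heavily a transcript is loaded with ribosomes, were compared next. Within a transcript the ratio of RPF CPM to RNA CPM can be set side by side over pools. Between transcripts it can also depend on how much of the transcript is coding, so no ranking is made. For ENSMUST00000038211.12 the ratio was 0.734, 0.903 and 0.800 in the control and 0.704, 0.885 and 0.789 in Rps6 WT, Trp53 null. Among Rps6 het pools it was 0.651, 0.760 and 0.829 with Trp53 WT and 0.666, 0.563 and 0.668 with Trp53 null, and these overlapped.

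For ENSMUST00000017430.11 the mean ratio was 1.73 ± 0.0757 in the control, 1.82 ± 0.0799 in Rps6 WT, Trp53 null, 1.80 ± 0.0736 in Rps6 het, Trp53 WT and 1.74 ± 0.116 in Rps6 het, Trp53 null (SD, n = 3). Group means of the ratio were 0.360 to 0.403 in ENSMUST00000108661.7, 0.924 to 0.967 in ENSMUST00000044423.3 and 0.360 to 0.403 in ENSMUST00000041956.13. In each of these 4 transcripts the ratios of Trp53 WT and Trp53 null pools overlapped, with Rps6 WT and with Rps6 het.

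Translational efficiency, tested as the RPF difference minus the RNA difference in 1 model over the 12 Rps6 het libraries, was called changed with Trp53 for 0 of the 5 by edgeR's quasi-likelihood test. It was called for 14 of 13829 transcripts, or 0.101%, and for 715 at an unadjusted p under 0.05, none of them among the 5, whose lowest unadjusted p was 0.349. With each pool's RNA and RPF library paired as a block the calls rose to 38, again with 0 of the 5. DESeq2 made 35, with none among the 3 for which it gave an adjusted p; it gave none for ENSMUST00000038211.12 and ENSMUST00000044423.3. The fitted log2 change in efficiency was -0.28 (95% interval -0.89 to 0.33) for ENSMUST00000038211.12 and -0.08 (-0.27 to 0.12) for ENSMUST00000017430.11, the transcripts whose RNA and RPF were both lower. For the other 3 it lay between -0.04 and 0.04, with intervals within -0.28 to 0.25.

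The transcripts left out by ID were not members. Without gene names it is not known here what they encode, so their levels are a description and no p53 response is read from them. ENSMUST00000108658.9 had log2 ratios of -2.26 in RNA and -2.14 in RPF in Rps6 WT limbs and of -2.92 and -2.40 in Rps6 het limbs, with RNA means of 105.8 ± 7.45 CPM in the control and 148.5 ± 24.5 CPM in Rps6 het, Trp53 WT (SD, n = 3). ENSMUST00000020576.7 had an RNA log2 ratio of -0.52 in Rps6 WT limbs and of -3.50 in Rps6 het limbs, and its RPF pools overlapped in Rps6 WT limbs.

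Across the 12 RNA libraries the transcripts whose levels followed the mean standardised level of the 5 most closely were ENSMUST00000048807.11, ENSMUST00000048957.10 and ENSMUST00000163336.7, with Pearson's r of 0.95, 0.95 and 0.94 among 7500 transcripts compared. ENSMUST00000048807.11 also lay past the RNA limit, with a log2 ratio of -0.36, but its RPF pools overlapped. Between the 5 themselves r ran from 0.458 to 0.892 over 10 pairs, with a median of 0.718. These correlations describe libraries that also chose the transcripts and that share depth and pool, and they carry no p-value.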

How the data were processed

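The authors deposited 1 table of raw read counts (whole numbers per versioned Ensembl transcript) for 24 libraries, 3 per group. The deposited table's name sets cds beside ribo and total beside rna. This is read here as coding sequence counted in RPF, and the name does not say whether total means the whole transcript. Bowtie2, UMI-tools and the builds GRCm38 and mm10 are named in the submitters' processing notes, without versions or roles; whether duplicates were removed is not given in the sources used here. Per the labels' protocols, RNA and RPF came from portions of 1 lysate; RPF came from RNase digestion and a sucrose cushion.

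CPM used library totals. The transcripts, comparisons and named-transcript rule were chosen with earlier results of these data known. The text names all members, the 3 transcripts next outside the limit, the transcripts left out by ID and the 3 most alike in RNA level. Planned pathway lists, markers and promoter motifs could not be run without gene names. Trp53 null and Trp53 WT were tested in the 6 Rps6 het pools with edgeR 4.0.16 in R 4.3.3. The settings were glmQLFit, glmQLFTest, TMM within library kind and filterByExpr with a minimum count of 10 and total of 15. The Benjamini-Hochberg threshold was 0.05. The fits were checked on simulated data for the error of the fold change and the share of changes found. That check set no limit on false calls. The simulated libraries were drawn independently, so structure shared between real pools was not covered. Translational efficiency was the interaction of library kind and genotype. Because transcripts were selected on the Rps6 WT pools, those got no test of their own. They enter 1 alternative, the fit of all 4 genotypes, which is therefore not independent of the selection. Alternatives were DESeq2 1.42.0, its size factors in edgeR, limma-voom (limma 3.58.1), no filter, all 4 genotypes in 1 fit, blocks and leaving out each pool. RNA and RPF libraries of a pool share a lysate: their deviations from group means correlated at r = 0.158 to 0.625 in the 12 pools. P-values for RNA and for RPF measure the spread between pools. The main efficiency test treated the 12 libraries as independent, and only the alternative with the pool as a block paired them.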

Additional observations from a re-analysis of the deposited data

How the results depend on the processing

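The RPF calls of ENSMUST00000038211.12 and ENSMUST00000017430.11 held in all 12 alternatives tried. Among these, the fit of all 4 genotypes also uses the Rps6 WT pools that chose the transcripts, so it is not independent of the selection. Efficiency was called for 0 of the 5 in 12 of 13 alternatives. In the other, DESeq2, 3 had an adjusted p and 0 were called. Members called lower in RNA were 0 to 2 when a pool was left out and 2 in the other alternatives. RNA calls over all transcripts were 1224, 1919 with all 4 genotypes in 1 fit, and 551 to 1185 without 1 pool. RPF calls were 1679, 1052 with DESeq2, and 1109 to 1729 without 1 pool. Efficiency calls were 14, 37 without a filter on low counts, 35 with DESeq2, 23 with all 4 genotypes, 38 with the pool as a block, and 5 to 16 without 1 pool.

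Deviations of same-numbered Rps6 het pools of the Trp53 genotypes correlated at -0.168, -0.519 and -0.153 in RNA and -0.329, -0.310 and 0.153 in RPF. Some differently numbered pools correlated positively. The highest RNA values were those of Trp53 WT replicates 1, 2 and 3 with Trp53 null replicates 2, 3 and 1, at 0.676, 0.653 and 0.430. This matching was picked from the correlations themselves. Deviations of the 3 replicates of a group sum to 0, so the correlations depend on each other. In RPF the same matching gave 0.432, 0.167 and 0.120. There Trp53 WT replicate 2 correlated more with null replicate 1, at 0.260, and replicate 3 with null replicate 3, at 0.153. A block by replicate number does not model the RNA matching, no fit with it was run, and its cause was not tested. With the replicate number as a block, RNA calls were 703 and efficiency calls 9, and the block changed no call of the 5 transcripts.

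Differences near 0 changed sign when 1 pool was left out: log2 values ran from -0.0609 to 0.0603 in RNA and -0.0911 to 0.0361 in RPF for ENSMUST00000041956.13, from -0.0133 to 0.102 in RNA and -0.00964 to 0.0770 in efficiency for ENSMUST00000108661.7, and from -0.142 to 0.0747 in efficiency for ENSMUST00000044423.3. The cause was not tested. The selection itself depends on scaling: with TMM-scaled totals 2 transcripts met it (ENSMUST00000038211.12 and ENSMUST00000108661.7), and with medians in place of means 6 did, 3 of them shared. The median SE of a log2 difference was 0.084 in RNA, 0.087 in RPF and 0.134 in efficiency, which limits what 3 pools a group can show.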
